A study of Mus musculus with 11 samples.

Results

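The *Serpina* genes of mouse chromosome 12 encode secreted serine protease inhibitors (serpins) that the liver makes in large amounts. The 10 genes described here are *Serpina1a*, *Serpina1b*, *Serpina1c*, *Serpina1d*, *Serpina1e*, *Serpina3k*, *Serpina3m*, *Serpina3n*, *Serpina6* and *Serpina10*. They were chosen by gene symbol, as abundant liver serpins of this locus, out of 13669 genes in the count table, and all 10 had enough reads to be tested. Liver RNA came from 11 male wild-type C57BL/6J mice on regular chow, each injected in the tail vein with a recombinant adeno-associated virus (rAAV). In 6 mice the virus carried a tough decoy (AAV-TuD), a hairpin RNA with a binding site for *miR-379* and another for *miR-541*, and in 5 it carried a negative control sequence (AAV-NC). Both viruses used the LP1 promoter, in which a control region of human apolipoprotein genes is fused with the promoter of human alpha-1-antitrypsin, so every liver carried copies of the promoter of the human counterpart of the *Serpina1* genes. The methods give 6 weeks of age for the mice on delivery, a fast of 5 to 6 h before killing, and killing between 4 weeks and 3 months after the virus for studies of this decoy, and the exact age and time of these 11 mice are not given in the sources used here.

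A serpin presents an exposed stretch, the reactive centre loop, as bait for a protease. When the protease cuts the loop, the serpin changes shape and the enzyme is trapped in a covalent complex, so the sequence of the loop largely sets which proteases are inhibited. Human alpha-1-antitrypsin comes from a single gene and protects the lung from neutrophil elastase, whereas the mouse has several *Serpina1* copies. The *Serpina3* genes are relatives of human alpha-1-antichymotrypsin. *Serpina6* encodes corticosteroid-binding globulin, a serpin fold that carries glucocorticoids in blood, and *Serpina10* encodes the protein Z-dependent inhibitor of coagulation factor X.

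The decoy was built against these mature miRNAs, shown 5′ to 3′ from RefSeq (build GRCm38.p6) with bases 2 to 8, the seed that pairs with target mRNAs, in capitals. They are encoded on the plus strand of chromosome 12, at chr12:109709065-109709085 and chr12:109742422-109742446, 5.29 Mb and more beyond the last *Serpina* gene:
miR-379-5p: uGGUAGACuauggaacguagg
miR-541-5p: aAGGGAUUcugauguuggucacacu
The base strings that pair with these seeds, GTCTACC for *miR-379* and AATCCCT for *miR-541*, were looked for on the transcript strand in the longest annotated 3′ UTR and coding sequence of each gene. None of the 10 *Serpina* genes held either string in its 3′ UTR or its coding sequence. Among 10934 tested genes with a 3′ UTR, 5.73% held the *miR-379* match and 9.51% the *miR-541* match, and among 10989 coding sequences the shares were 8.29% and 8.02%. In the transcripts with the longest coding sequence, the 3′ UTRs of the 5 *Serpina1* genes have only 86 or 87 bases and that of *Serpina6* 216. Such short stretches leave little room for a match, so no conclusion is drawn from the absence of matches. The paper reports that the decoy also lowered other miRNAs encoded in the same cluster, and the host transcripts *lncMGC* and *Mirg*. Matches to the seeds of those other miRNAs were not looked for.

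Libraries were made from the 3′ ends of polyadenylated RNA and held between 8148531 and 12043959 counted reads per liver, so every *Serpina* gene rested on at least 735 reads in every liver. The major urinary protein (*Mup*) transcripts made up 38.6% of reads in AAV-NC 7, 30.9% in AAV-TuD 3 and 28.4% in AAV-TuD 5, but 8.09% to 18.7% in each of the remaining 8 libraries. Levels are therefore given as CPM, the reads of a gene per 1000000 reads of a library whose size was scaled with TMM factors. Of 13334 genes tested with edgeR, 1543 were called at an adjusted p value under 0.05 (11.6%), and 62.6% of them were higher with AAV-TuD. Scaling by library size alone shifted the median difference over all genes from 0.00 to 0.23 on the log2 scale, and then 95.1% of 1457 called genes were higher. Of 8 hepatocyte markers none was called by edgeR, with 1 higher and 2 lower at an unadjusted p value under 0.05 and 1 in each direction by DESeq2, and their summed level was 40658 to 47926 CPM with AAV-NC and 48804 to 55234 CPM with AAV-TuD. Of the markers of other liver cells, 7 of 10 Kupffer cell and macrophage genes, 8 of 9 stellate cell and fibroblast genes and 4 of 4 tested cholangiocyte genes were called higher, with summed levels of 141 to 399, 318 to 449 and 47.5 to 79.3 CPM with AAV-TuD against 126 to 186, 175 to 245 and 20.3 to 40.9 CPM with AAV-NC. None of 9 sinusoidal endothelial markers was called by edgeR or DESeq2 or had an unadjusted p value under 0.05, and their sum was 260 to 281 CPM with AAV-TuD and 261 to 289 CPM with AAV-NC. *Acta2*, *Cftr*, 7 of 8 neutrophil markers and 5 of 6 mast cell markers were not analysed here, and the remaining neutrophil and mast cell genes were at most 2.53 and 8.89 CPM, with neither called. In RNA of whole tissue, fewer cells of a type and less RNA per cell cannot be told apart.

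The 10 genes lie within 799.5 kb of chromosome 12 (GRCm38, chr12:103614786-104414329). *Serpina10*, *Serpina6* and the 5 *Serpina1* genes are on the minus strand, and *Serpina3k*, *Serpina3m* and *Serpina3n* on the plus strand. The annotated exons of *Serpina3m* share the first exon of *Serpina3k* on the same strand, and an exon of *Serpina1c* overlaps *B430119L08Rik* on the opposite strand. The *Serpina1* coding sequences are between 96.3% and 96.8% identical in pairs without *Serpina1a*. Pairs with *Serpina1a* are at 91.5% to 93.4%. There gaps count as differences, and the annotated coding sequence of *Serpina1a* is longer, 1311 bases against 1242 in the others. Reads of a 3′ library come from the end of the transcript, where the last 500 bases of these 5 genes are between 93.8% and 96.6% identical, with identical runs of up to 132 bases. Of 451 windows of 50 bases in this stretch, between 58.5% (*Serpina1d*) and 83.6% (*Serpina1e*) occur in no other of the 10 genes. For the 5 genes outside *Serpina1*, every window occurs in no other of the 10. Genes beyond the 10, among them further *Serpina3* paralogs, were not searched. The 5 *Serpina1* genes may therefore share reads, *Serpina1e* included. How reads that match several copies were counted is not given in the sources used here. *Rps6* and its pseudogene copy *Rps6-ps4* reached similar totals over the 11 livers, 28994 and 29995 reads. Their sequences were not compared here, and these totals do not show how reads of the *Serpina1* genes were counted.

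Differences between the *Serpina1* copies are denser in the loop than over the coding sequence as a whole, and the loop lies near the 3′ end. The 72 coding bases that open with the hinge of the reactive centre loop end 170 or 171 bases before the end of the transcript. Within them 17 positions (23.6%) are not shared by all 5 copies, against 82 of 1240 positions (6.61%) over the whole coding sequence. These stretches are shown in the direction of the transcript, from GRCm38 and its GENCODE M21 transcripts, with capitals at positions where the 5 copies differ. They lie on the minus strand in the last coding exon (exon 6 of 6 in *Serpina1a*, exon 5 of 5 in the others), at chr12:103853759-103853830, chr12:103728326-103728397, chr12:103895096-103895167, chr12:103763764-103763835 and chr12:103947102-103947173 in the order given:
Serpina1a: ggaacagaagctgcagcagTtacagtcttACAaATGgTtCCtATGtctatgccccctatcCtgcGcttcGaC
Serpina1b: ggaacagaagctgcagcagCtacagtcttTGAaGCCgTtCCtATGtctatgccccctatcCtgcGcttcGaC
Serpina1c: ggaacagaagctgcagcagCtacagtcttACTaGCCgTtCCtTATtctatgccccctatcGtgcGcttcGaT
Serpina1d: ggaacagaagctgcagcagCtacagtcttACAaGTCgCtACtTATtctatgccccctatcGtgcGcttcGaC
Serpina1e: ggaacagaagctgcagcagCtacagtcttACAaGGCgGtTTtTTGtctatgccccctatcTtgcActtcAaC
The capitals cluster in the middle of the stretch, after a hinge that is the same in all copies apart from 1 base. Identical bases lie on both sides of this cluster, with a few more capitals near the end of the stretch. Whether reads of the different copies share these bases was not examined.

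Upstream of the genes the *Serpina1* copies also share long stretches. The 135 bases around a short string that all of them hold differ at 14 positions over the 5 copies, and a pair of copies differs at 3 to 9 of them. The sequences are shown because the 5 genes are compared as a group, in the direction of transcription, from RefSeq (GRCm38.p6), with capitals where not all copies carry the same base. They lie on the minus strand at chr12:103863596-103863730, chr12:103738171-103738305, chr12:103904933-103905067, chr12:103773605-103773739 and chr12:103956931-103957065, and between 0 and 29 of their bases lie after the annotated start:
Serpina1a: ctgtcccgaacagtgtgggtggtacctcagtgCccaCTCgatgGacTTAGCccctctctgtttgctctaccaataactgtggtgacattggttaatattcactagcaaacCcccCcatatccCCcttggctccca
Serpina1b: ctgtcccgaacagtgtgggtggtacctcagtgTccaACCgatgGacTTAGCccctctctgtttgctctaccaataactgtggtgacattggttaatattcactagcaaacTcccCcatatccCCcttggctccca
Serpina1c: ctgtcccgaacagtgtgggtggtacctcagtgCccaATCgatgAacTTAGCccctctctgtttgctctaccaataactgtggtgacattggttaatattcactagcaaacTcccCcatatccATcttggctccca
Serpina1d: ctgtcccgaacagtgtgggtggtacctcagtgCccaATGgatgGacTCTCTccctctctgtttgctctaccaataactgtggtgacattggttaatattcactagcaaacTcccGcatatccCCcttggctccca
Serpina1e: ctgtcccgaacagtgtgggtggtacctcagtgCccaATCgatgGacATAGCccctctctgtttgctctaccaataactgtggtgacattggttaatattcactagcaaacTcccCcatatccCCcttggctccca
The letters TTCNNNGAA, the pattern that STAT factors of the growth hormone and interleukin-6 pathways can bind, were in none of the 6 RefSeq promoter windows of these genes (300 bases, 250 before to 50 after a start) and in 8.30% of all 32851 windows, searched on both strands.

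The 10 genes together took between 1.58% and 3.01% of all reads of a liver. A 3′ library gives about 1 read position per transcript whatever its length, so CPM values of different genes need no division by length. The *Serpina1* copies may share or lose reads to different degrees, with 58.5% (*Serpina1d*) to 83.6% (*Serpina1e*) of windows found in no other member. Their order, and the place of *Serpina3k* above them, therefore describes counted reads. *Serpina3k* was the most abundant, with a mean of 4922 CPM over the 11 livers, followed by *Serpina1c* (4043 CPM), *Serpina1b* (3541 CPM), *Serpina1e* (3059 CPM), *Serpina1a* (3027 CPM) and *Serpina1d* (1828 CPM). The other 4 were far lower, at 153 CPM for *Serpina3n*, 125 CPM for *Serpina6*, 118 CPM for *Serpina3m* and 98.3 CPM for *Serpina10*. *Serpina3k* was above *Serpina1c* in 10 of 11 livers and level with it in the other (ratio 0.998), *Serpina1c* was above *Serpina1b* in 11, and *Serpina1a* was above *Serpina1d* in 11. Other neighbours changed places. *Serpina1b* was above *Serpina1e* in 7 livers, *Serpina1e* above *Serpina1a* in 5, *Serpina3n* above *Serpina6* in 8, *Serpina6* above *Serpina3m* in 6 and *Serpina3m* above *Serpina10* in 9, so their order did not hold beyond the spread between livers.

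**Figure D1:**
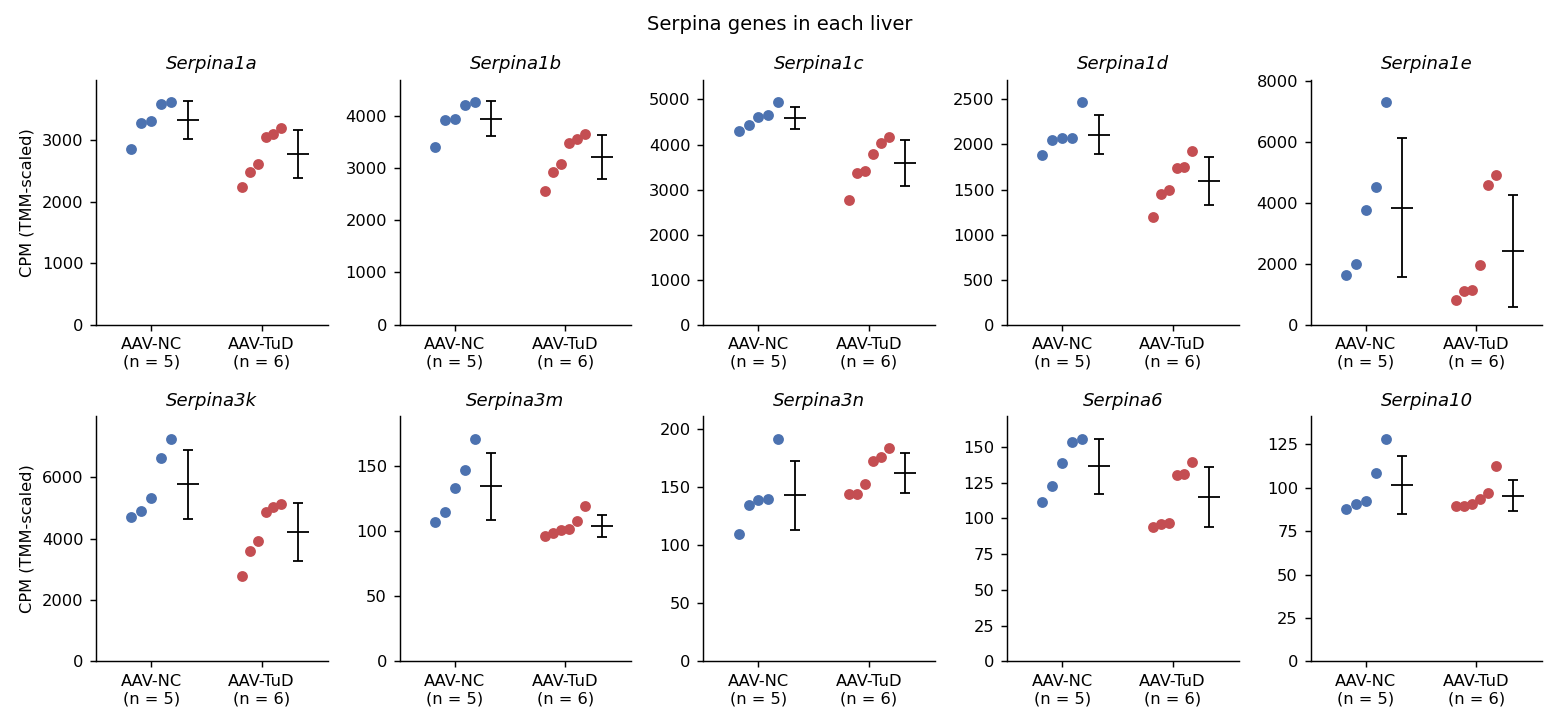
Level of each *Serpina* gene in each liver, in CPM on TMM-scaled libraries (vertical axis from 0, scaled per gene). Points are livers, sorted by value within a group, and the black bar with its whiskers is the mean and SD. The groups are apart only for *Serpina1c*, where the highest AAV-TuD liver is at 4159 and the lowest AAV-NC liver at 4297 CPM.

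The group comparison asks whether these mRNAs differ between livers with the decoy and livers with the control sequence. *Serpina1d* and *Serpina3m* fell, to 0.756 and 0.774 times the AAV-NC level, and no member rose. Under edgeR 2 of the 10 genes were called lower, where 4.33% of all tested genes were called lower and 7.24% higher. In all, 6 members had an unadjusted edgeR p value under 0.05, all of them lower with AAV-TuD. Values this small were common among all genes in either direction. *Serpina1a*, the weakest of the 6, ranked 3238 of 13334 tested genes by this value. DESeq2 called 5 lower (*Serpina1b*, *Serpina1c*, *Serpina1d*, *Serpina3k* and *Serpina3m*), where it called 5.63% of all genes lower. Limma-voom with quality weights called 4, for which no share over all genes is given here. Neither DESeq2 nor limma-voom called a member higher. The log2 fold change was below 0 for 9 members, and its median over the 10 was -0.33, against 0.00 over all tested genes. With library size alone no member was called and the median of the members was -0.10. Relative to the median of all genes that was a difference of -0.34, against -0.32 with TMM. With the 3 *Mup*-rich livers left out, a choice made after the data had been seen, edgeR called *Serpina1d* and *Serpina1e* lower and *Serpina3n* higher, and *Serpina3m* was not called (adjusted p = 0.0622). No share over all genes is given for this fit either.

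*Serpina1d*, the *Serpina1* copy with the lowest mean CPM, was at 2071, 2052, 1879, 2073 and 2471 CPM in AAV-NC livers 1, 2, 6, 7 and 8. It was between 1197 and 1926 CPM with a median of 1621 CPM in the 6 AAV-TuD livers. All AAV-TuD livers but 1 were below every AAV-NC liver. The mean was 2109 ± 218 CPM (SD, n = 5) with AAV-NC and 1594 ± 262 CPM (n = 6) with AAV-TuD, 0.756 times as much, with a log2 fold change of -0.40 (SE 0.12, edgeR adjusted p = 0.0411; unadjusted exact permutation p over all splits of the livers 0.00649, two-sided). The call was lost in 8 of the 11 fits that left out 1 liver, in which the adjusted p value of edgeR ran from 0.0268 to 0.0973. With DESeq2 the adjusted p value was 0.00729, and without the 3 *Mup*-rich livers that of edgeR was 0.0215.

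*Serpina1c* was the only member whose groups did not overlap, which 3.28% of all tested genes did in this direction. It was at 4645, 4442, 4297, 4944 and 4605 CPM in AAV-NC livers 1, 2, 6, 7 and 8, and between 2778 and 4159 CPM with a median of 3601 CPM with AAV-TuD. Every AAV-TuD liver was thus below every AAV-NC liver, at a mean of 3590 ± 511 against 4587 ± 243 CPM. The log2 fold change of -0.35 (SE 0.12) had an edgeR adjusted p value of 0.0631 and so was not called, while DESeq2 gave 0.00571 and limma-voom 0.0174. *Serpina1b*, at a mean of 3943 ± 340 CPM with AAV-NC and 3206 ± 425 CPM with AAV-TuD, had a log2 fold change of -0.30 (SE 0.12, edgeR adjusted p = 0.111, DESeq2 adjusted p = 0.0285). *Serpina1a*, at 3329 ± 307 and 2776 ± 392 CPM, had -0.26 (SE 0.12, edgeR adjusted p = 0.168, DESeq2 adjusted p = 0.0773). For both *Serpina1a* and *Serpina1b* 3 AAV-TuD livers, numbers 4, 9 and 10, were below all AAV-NC livers, and AAV-TuD 4 was the lowest of all livers for each of *Serpina1a* to *Serpina1d*.

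These 4 copies moved together from liver to liver. After the group means had been taken out, Pearson's r between their log2 CPM values over the 11 livers was between 0.89 and 0.99, a description of libraries that share scaling and, for these near-identical copies, possibly reads. Their proportions hardly varied. Of the reads of the 4, *Serpina1c* took between 30.9% and 34.6% in a liver, *Serpina1b* between 27.3% and 29.1%, *Serpina1a* between 23.0% and 25.6% and *Serpina1d* between 13.7% and 16.6%. Summing the 4 to a single row gave a log2 fold change of -0.32 (SE 0.14), and summing all 5 copies gave -0.39 (SE 0.18).

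*Serpina1e* varied along with these 4 copies, with a within-group r of 0.70 to 0.86, but over a much wider range. It was at 1616, 3760, 1999, 4499 and 7297 CPM in AAV-NC livers 1, 2, 6, 7 and 8, and the AAV-TuD livers lay between 819 and 4891 CPM around a median of 1551 CPM. The highest liver, AAV-NC 8, was 8.91 times the lowest, AAV-TuD 4, where the other 4 copies spanned 1.62 to 2.06 times, and the 3 lowest livers, AAV-TuD 4, 10 and 9, were below every AAV-NC liver. The group means of 3834 ± 2276 CPM (SD, n = 5) and 2413 ± 1835 CPM (n = 6) differed by a log2 fold change of -0.67 with an SE of 0.47 (edgeR adjusted p = 0.403), so this difference, the widest among the members, was within the spread between livers. Leaving out AAV-NC 8 moved it to -0.30, and leaving out AAV-TuD 5 to -0.997. Without the 3 *Mup*-rich livers it was -1.54 (SE 0.41, edgeR adjusted p = 0.0297), but these livers hold 3 of the 4 highest values of *Serpina1e*, 2 of them with AAV-TuD, so the livers that remain were in effect chosen by its level.

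The spread of *Serpina1e* was large for a gene of its abundance. The within-group SD of its log2 CPM was 1.01, against 0.17 to 0.21 for *Serpina1a* to *Serpina1d* and 0.32 for *Serpina3k*. Of 95 genes that averaged 10000 reads or more, 7 varied more, all of them *Mup* genes, and among the 74 that were not *Mup* genes or pseudogenes *Serpina1e* came first, with *Scd1*, a fatty acid desaturase, next at 0.51. The ratio of *Serpina1e* to *Serpina1a* reads, which no scaling can change, was 2.03 in AAV-NC 8, 1.53 and 1.47 in AAV-TuD 5 and 3, 1.24 and 1.14 in AAV-NC 7 and 2, and no more than 0.701 in the other 6, the lowest being 0.367. The livers fell into nearly the same order by their *Mup* share, with 1 marked exception. AAV-NC 8 had the most *Serpina1e* but only the eighth highest *Mup* share, 13.8%. The part of the *Mup* share or of the 3 *Mup*-rich livers in the values of *Serpina1e* was not tested.

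**Figure D2:**
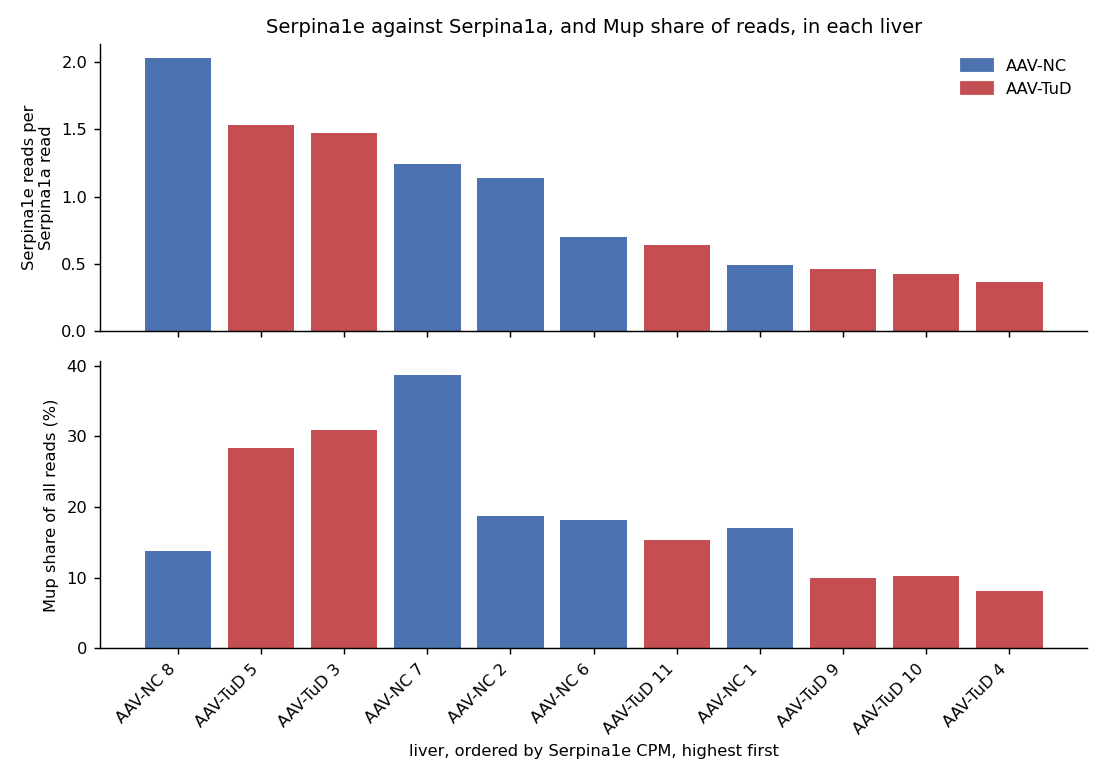
Reads of *Serpina1e* per read of *Serpina1a* (upper bars) and *Mup* share of all reads in percent (lower bars) in each of the 11 livers, ordered by *Serpina1e* CPM. The ratio falls from 2.03 in AAV-NC 8 to 0.367 in AAV-TuD 4, the 3 livers at the low end are all AAV-TuD, and AAV-NC 8 combines the highest ratio with a *Mup* share of 13.8%.

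The genes whose pattern over the livers was most like that of *Serpina1e* were sought after its spread had been seen, as a description over 11 livers with group means taken out. With a minimum of 100 reads on average, these were *Hao1*, a peroxisomal glycolate oxidase (Pearson's r = 0.97), the transporter gene *Slc22a28* (0.94), *C8b* and *Hc*, which encode complement components (0.94 and 0.93), and *Usp3*, a ubiquitin-specific protease (0.92). The most opposite were *Esd* (-0.96), *Slc16a7* (-0.93) and *Acot2* (-0.90). *C8b* was at 712 CPM in AAV-NC 8 and 320 CPM in AAV-TuD 4, the livers with the highest and lowest *Serpina1e*, and *Hao1* at 162 and 94.3 CPM. *Slc22a28* was at 32.0 and 9.57 CPM in the same livers, and *Acot2*, of opposite pattern, at 3.60 and 34.3 CPM.

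The *Serpina3* genes differ from each other more than the *Serpina1* copies do. Their coding sequences are 91.2% identical between *Serpina3k* and *Serpina3m*, 85.3% between *Serpina3m* and *Serpina3n* and 82.6% between *Serpina3k* and *Serpina3n*. In the loop stretch 34 of 72 positions (47.2%) are not shared by all 3 genes, against 18.5% of the coding sequence. The stretches are given as above, from the plus strand at chr12:104345269-104345340, chr12:104393769-104393840 and chr12:104413448-104413519, each in exon 5 of 5, with capitals at positions where the genes differ:
Serpina3k: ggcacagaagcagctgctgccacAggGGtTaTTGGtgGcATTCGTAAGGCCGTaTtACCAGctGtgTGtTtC
Serpina3m: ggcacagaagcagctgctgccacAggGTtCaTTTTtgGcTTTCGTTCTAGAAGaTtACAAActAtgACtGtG
Serpina3n: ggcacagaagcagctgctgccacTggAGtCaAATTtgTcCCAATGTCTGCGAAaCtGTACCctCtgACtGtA
The hinge at the start is the same in all of them, and the capitals fill most of the rest.

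*Serpina3k* was at 4714, 5335, 4907, 7250 and 6634 CPM in AAV-NC livers 1, 2, 6, 7 and 8, and between 2773 and 5128 CPM with a median of 4382 CPM with AAV-TuD. The AAV-NC livers 7 and 8 stood above all others, and AAV-TuD livers 4, 9 and 10 were below every AAV-NC liver. The log2 fold change was -0.45 (SE 0.17, edgeR adjusted p = 0.100), not called by edgeR and called by DESeq2 with an adjusted p value of 0.0411. Its values followed those of the *Serpina1* genes, with a within-group r of 0.85 to 0.91 over the 11 livers, on genes that share no 50-base window in their last 500 bases.

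*Serpina3m*, from the gene model that shares its first exon with *Serpina3k*, was at 171, 147, 133, 115 and 107 CPM in AAV-NC livers 1, 2, 6, 7 and 8, and between 96.6 and 119 CPM with a median of 101 CPM with AAV-TuD. It was lower with AAV-TuD in 4 of 6 livers than in any AAV-NC liver, and the 2 groups overlapped through AAV-NC livers 7 and 8, where *Serpina3k* was highest. The mean fell from 135 ± 25.8 CPM to 104 ± 8.33 CPM, a log2 fold change of -0.37 (SE 0.11, edgeR adjusted p = 0.0348; unadjusted exact permutation p = 0.0152). This call too was lost in 8 of 11 fits with 1 liver left out, with edgeR adjusted p values of 0.0136 to 0.0928.

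*Serpina3n*, which responds to inflammation in many tissues, was the 1 member with a positive log2 fold change. It was at 135, 140, 139, 192 and 110 CPM in AAV-NC livers 1, 2, 6, 7 and 8, and between 144 and 184 CPM with a median of 163 CPM with AAV-TuD. Every AAV-TuD liver was above 4 of the AAV-NC livers and below AAV-NC 7, which had the highest *Mup* share. The log2 fold change was 0.18 (SE 0.12, edgeR adjusted p = 0.353) and was not called. Without AAV-NC 7 it was 0.31 (edgeR adjusted p = 0.0552), and without all 3 *Mup*-rich livers 0.39 (SE 0.10, edgeR adjusted p = 0.0216). Without AAV-NC 8 it was 0.10 (edgeR adjusted p = 0.624). *Serpina3n* made up 1.60% to 2.69% of the reads of the 3 *Serpina3* genes with AAV-NC and 2.69% to 5.77% with AAV-TuD, where *Serpina3k* took between 91.1% and 96.8% in all livers. These shares therefore also depend on *Serpina3k*, with a median of 5335 CPM with AAV-NC and 4382 CPM with AAV-TuD. They do not by themselves show a rise of *Serpina3n*.

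*Serpina6* was at 139, 112, 154, 123 and 156 CPM in AAV-NC livers 1, 2, 6, 7 and 8, and between 94.2 and 140 CPM with a median of 114 CPM with AAV-TuD. The AAV-TuD livers formed 2 sets, with livers 3, 5 and 11 at 94.2, 97.0 and 96.4 CPM, below every AAV-NC liver, and livers 4, 9 and 10 at 140, 130 and 131 CPM. The last 3 were also the livers with the least *Serpina1e*, and over the 11 livers the within-group r of *Serpina6* with the 5 *Serpina1* genes was between -0.77 and -0.59. The 2 sets also differed in *Mup* share, 30.9%, 28.4% and 15.3% in livers 3, 5 and 11 against 8.09% to 10.2% in livers 4, 9 and 10. The part of the *Mup* share in the values of *Serpina6* was not tested. The log2 fold change was -0.25 (SE 0.12, edgeR adjusted p = 0.213). *Serpina10* was at 90.7, 92.5, 87.9, 109 and 128 CPM in AAV-NC livers 1, 2, 6, 7 and 8, and between 89.7 and 113 CPM with a median of 92.2 CPM with AAV-TuD, with a full overlap of the groups. Its log2 fold change of -0.09 (SE 0.10, edgeR adjusted p = 0.625) turned to 0.14 with library size alone and to 0.011 without AAV-NC 8.

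**Figure D3:**
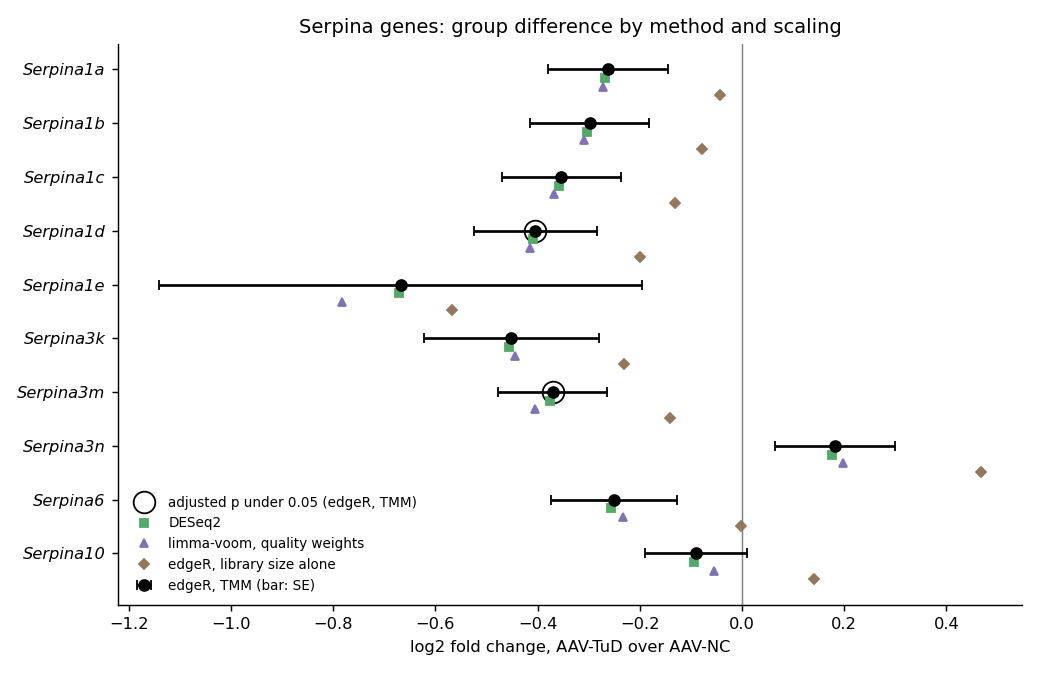
Log2 fold change of each *Serpina* gene, AAV-TuD over AAV-NC, with edgeR on TMM-scaled libraries (black, whiskers are the SE, open circles mark adjusted p values under 0.05) and 3 alternatives. DESeq2 and limma-voom points lie near the black points, library size alone moves all points but that of *Serpina1e* to the right by about the 0.23 shift of all genes, and *Serpina10* then turns from -0.09 to 0.14.

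Beyond these 10, 19 more serpin genes were tested, 7 of them with *Serpina* symbols. Of the 19, 3 rose and none fell by edgeR. *Serpinb6a*, an inhibitor that acts inside cells, was between 4.41 and 7.01 CPM with AAV-NC and between 7.79 and 14.9 CPM with AAV-TuD, so that the groups did not overlap, at 1.93 times the AAV-NC level (log2 fold change 0.95, SE 0.18, edgeR adjusted p = 0.00348). *Serpinh1*, a collagen chaperone without inhibitor function, was between 1.79 and 5.88 CPM and between 5.73 and 7.38 CPM, at 1.70 times (edgeR adjusted p = 0.0363). *Serpinb8*, another intracellular serpin, was near the detection limit, at 0.829 ± 0.482 and 1.75 ± 0.401 CPM (log2 fold change 1.08, SE 0.33, edgeR adjusted p = 0.0488). The stellate cell, macrophage and cholangiocyte markers described above were higher in the same livers, and their part in these results was not tested.

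No other secreted liver serpin was called by edgeR. Among the 19 genes 6 had an unadjusted p value under 0.05 in the lower direction, a level that was common among all tested genes, as described above. DESeq2 and limma-voom each called 3 lower, *Serpina3c*, *Serpinc1* and *Serping1*. Of the 7 further *Serpina* genes 5 were below 0 and none was called by edgeR. *Serpina3c* was at 8.52 ± 2.77 CPM with AAV-NC and 5.11 ± 2.18 CPM with AAV-TuD (log2 fold change -0.74, SE 0.26, edgeR adjusted p = 0.0742). *Serpinc1*, the gene of antithrombin, was between 657 and 725 CPM with AAV-NC and between 551 and 628 CPM with AAV-TuD, with no overlap, and had a log2 fold change of -0.19 (SE 0.07, edgeR adjusted p = 0.0847; unadjusted exact permutation p = 0.00216, the smallest these groups allow). *Serping1*, which encodes the C1 inhibitor of complement, was at 687 ± 72.2 and 567 ± 43.7 CPM, with a log2 fold change of -0.28 (SE 0.09, edgeR adjusted p = 0.0501). DESeq2 gave adjusted p values of 0.00259 and 0.0120 for these 2 genes. The median log2 fold change of the 19 was -0.17, and 10 were below 0. Under library size alone 3 of the 19 were called higher and 1 lower.

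Acute phase proteins are secreted by the liver in inflammation, and *Serpina3n* is often counted among them. Of 25 listed, 23 were tested, and 5 rose and 5 fell, with a median log2 fold change of 0.08. Of the 4 serum amyloid A genes tested, *Saa1* and *Saa2* rose, and *Saa3* and *Saa4*, at 1.20 and 1.17 times, were not called (edgeR adjusted p = 0.623 and 0.474). *Saa1* was between 13.5 and 34.7 CPM with AAV-NC and between 35.1 and 94.8 CPM with AAV-TuD, 3.41 times as much (edgeR adjusted p = 0.00106), and *Saa2* was 4.05 times as high (0.00499). *Cp*, the copper carrier ceruloplasmin, rose to 1.37 times (edgeR adjusted p = 0.00149) and the orosomucoid gene *Orm3* to 3.06 times (0.00353). C-reactive protein (*Crp*, 0.791 times), the lipopolysaccharide-binding protein *Lbp* (0.701 times) and the inter-alpha-trypsin inhibitor heavy chains *Itih4* and *Itih3* (0.774 and 0.786 times) fell, with edgeR adjusted p values of 0.00390 to 0.0322. Without TMM, on library size alone, 7 of the list were called higher and none lower.

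Of 27 listed serine proteases, cofactors and related genes, a list that includes proteases inhibited by serpins, 17 were measured. *Elane*, *Prtn3* and *Ctsg*, the neutrophil proteases that alpha-1-antitrypsin and antichymotrypsin are known to block, were not analysed here. Of the 17, 6 fell and 2 rose, with a median log2 fold change of -0.16. *Klkb1*, the gene of plasma kallikrein, was between 160 and 182 CPM with AAV-NC and between 113 and 141 CPM with AAV-TuD (log2 fold change -0.45, SE 0.07, edgeR adjusted p = 0.00123). Coagulation factor VII (*F7*) fell to 0.704 times, factor X (*F10*), the target of the *Serpina10* product, to 0.808 times, and the hepatocyte growth factor activator *Hgfac* to 0.760 times (edgeR adjusted p = 0.00220, 0.00620 and 0.00634). *Proz*, the cofactor of the *Serpina10* product, was at 76.0 and 68.4 CPM (edgeR adjusted p = 0.180). *Prss8*, at 0.722 and 2.26 CPM, and the growth factor gene *Hgf*, at 4.56 and 7.56 CPM, rose (edgeR adjusted p = 0.0113 and 0.0328). Under library size alone 1 of this list was called lower and 2 higher.

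Of 24 genes that regulate serpin transcription in hepatocytes, 3 fell and none rose by edgeR or DESeq2, and 2 had an unadjusted p value under 0.05 in the higher direction. *Hnf4a*, a central hepatocyte transcription factor, was between 128 and 181 CPM with AAV-NC and between 103 and 135 CPM with AAV-TuD, at 0.771 times (edgeR adjusted p = 0.0150). The forkhead factor *Foxa3*, at 0.686 times, and the interleukin-1 receptor *Il1r1*, at 0.671 times, fell with edgeR adjusted p values of 0.0184 and 0.0150. The median log2 fold change of the list was -0.13. None of the list was called in either direction with library size alone.

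Secreted serpins fold in the endoplasmic reticulum and are exported and later cleared through receptors. Of 27 tested genes of these steps 5 fell and none rose, with none in the higher direction at an unadjusted p value under 0.05 or by DESeq2. These included both subunits of the asialoglycoprotein receptor, which takes up desialylated serum proteins (*Asgr1*, 0.824 times, and *Asgr2*, 0.755 times), the folding sensor *Uggt1* (0.777 times) and *Lman1*, the cargo receptor for alpha-1-antitrypsin export (0.780 times), with edgeR adjusted p values of 0.00321 to 0.0225. The chaperones *Hspa5* and *Hsp90b1* were at 0.935 and 1.001 times. The median of the list was -0.16 and 22 genes were below 0. No gene of the list was called with library size alone. The part of these genes in the level of any *Serpina* gene was not tested.

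The *Serpina6* product carries corticosteroids, and 19 genes of corticosteroid handling and glucocorticoid response were tested beside it. *Hsd11b1*, whose enzyme regenerates active glucocorticoid inside the cell, was between 142 and 203 CPM with AAV-NC and between 96.1 and 122 CPM with AAV-TuD, without overlap, and fell to 0.621 times (log2 fold change -0.69, SE 0.09, edgeR adjusted p = 0.000413). The cell cycle inhibitor *Cdkn1a* (3.87 times) and the metallothioneins *Mt1* and *Mt2* (3.34 and 4.01 times) rose, with edgeR adjusted p values of 0.00390 to 0.0105. These 3 also respond to stresses other than glucocorticoids. *Fkbp5* and *Tsc22d3*, among the best known glucocorticoid targets, were at 0.820 and 0.974 times with unadjusted edgeR p values of 0.175 and 0.853. The glucocorticoid receptor gene *Nr3c1*, which is also in the list of transcription regulators, was at 0.893 times (edgeR adjusted p = 0.207). The median of the list was -0.14. Under library size alone 4 of the list were called higher and none lower, so the call of *Hsd11b1* was lost.

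**Figure D4:**
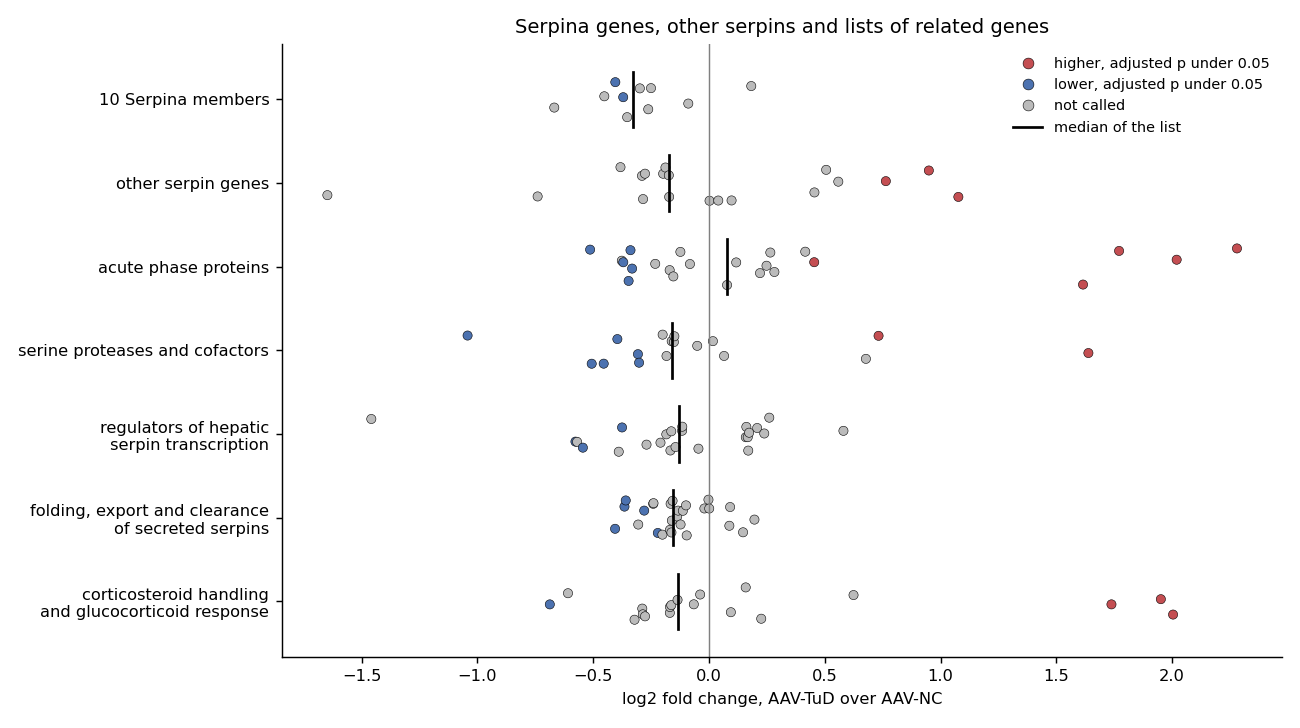
Log2 fold change, AAV-TuD over AAV-NC, of the 10 *Serpina* genes, 19 other serpin genes and 5 lists of related genes, with TMM scaling. Each point is a gene, red and blue mark genes called higher and lower by edgeR, and black lines are medians of a list. The *Serpina* genes have a median of -0.33 with 2 called lower, and the acute phase list holds 5 genes called in each direction.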

How the data were processed

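From 500 ng RNA per liver the authors made 3′ end libraries (QuantSeq). They used BBDuk for trimming, STAR (2.5.3a in the submitters' notes) for alignment to GRCm38 and Rsubread for counting, and deposited raw read counts per gene. The annotation, strand setting and handling of multi-mapping reads are not given in the sources used here. Groups were taken from the sample titles. A gene was tested if 5 or more livers had over 10 reads of it. The main test was edgeR's quasi-likelihood test (version 4.0.16, R 4.3.3, TMM, Benjamini-Hochberg adjustment over all 13334 genes, threshold 0.05), where the study used DESeq2. Log2 CPM used a prior count of 2. Single genes were also tested by exact two-sided permutation over all splits of the livers (smallest p value 0.00216). Alternatives were DESeq2 1.42.0 and its size factors, upper-quartile factors, library size alone, scaling without *Mup* genes, limma-voom (limma 3.58.1), filterByExpr, no filter, each liver left out and summed *Serpina1* rows. The code was tested on simulated data.

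Identifiers were matched to GENCODE M21 (13658 of 13669), and the loop was located by a hinge pattern in the coding sequence. RefSeq promoter windows were used for 6 members, and *Serpina3k*, *Serpina3m*, *Serpina6* and *Serpina10* had no entry. The members and gene lists were chosen with earlier results of these data known. All members are named, and of the other serpins and each list the called genes, up to 4 per direction by smallest p value. *Serpina3c*, *Serpinc1*, *Serping1*, *Saa3*, *Saa4*, *Scd1*, *Proz*, *Hspa5*, *Hsp90b1*, *Fkbp5*, *Tsc22d3*, *Nr3c1*, *Rps6*, *Rps6-ps4* and the genes set beside *Serpina1e* were named after their values were seen. A result for 1 listed gene is not reported here.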

Additional observations from a re-analysis of the deposited data

Results flagged for a closer look

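In a group of 4 to 10 livers, a highest or lowest value that stands far from the others relative to the range of the group was marked with Dixon's ratio at its 95% critical value. For the 10 *Serpina* genes, 3 sums and ratios of them, the share of reads taken by the members and the *Mup* share, 30 sets of values were examined, of which chance alone marks about 1 in 20, or 1.5. There were 2 such values among these sets. *Serpina10* in AAV-TuD 5 was at 113 CPM, against 96.8 CPM in the next liver of its group and 89.7 CPM in the lowest (ratio 0.694). The *Mup* share of AAV-NC 7, 38.6%, stood above 18.7% in the next AAV-NC liver and 13.8% in the lowest (ratio 0.804). Both are values of single livers, and their causes were not tested. *Serpina1e*, although its spread was wide, had no value that met this criterion in either group. Other ratios of the members were not examined in this way. Among those, *Serpina3k* reads per *Serpina3n* read stood at 60.5 in AAV-NC 8, against 38.1 in the next AAV-NC liver and 34.9 in the lowest.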

How the results depend on the processing

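With 19 alternatives planned, the log2 fold changes of *Serpina1a* to *Serpina1e*, *Serpina3k*, *Serpina3m* and *Serpina6* were below 0 in every one and that of *Serpina3n* above 0 in every one, while that of *Serpina10* turned to 0.14 with library size alone and ran from -0.14 to 0.011 with each liver left out, the latter without AAV-NC 8. The 2 members called became 5 with DESeq2, 4 with limma-voom, 1 with upper-quartile factors and 0 with library size alone. The share of all genes called lower is given above only for DESeq2 and for edgeR with TMM. *Serpina1d* was called in 9 of the 19 and *Serpina3m* in 10. With each liver left out in turn, 0 to 1 members, 1 to 5 other serpins, 7 to 10 acute phase genes, 6 to 8 proteases and cofactors, 3 to 4 regulators, 2 to 7 folding and clearance genes and 4 to 5 corticosteroid genes were called, so no fit without a liver called both members, and the call of each rests on few livers. The 3 other serpins called became 6 with DESeq2 and with limma-voom and 5 without the 3 *Mup*-rich livers. With library size alone, 3 proteases and cofactors, 0 regulators and 0 folding and clearance genes were called. This setting shifts the median of all genes, and the causes of the other differences were not tested. Both summed rows of *Serpina1* copies, -0.39 and -0.32, lay within their SE of the median of the 5 copies (-0.35). No paired analysis was possible because the groups share no replicate number. Depth did not limit the members, which had at least 735 reads in a liver, but does limit *Serpinb8*.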
